A study of Mus musculus with 5 samples.

Results

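Onecut1 and 8 further transcription factors of liver cell identity, Onecut2, Foxa1, Foxa2, Foxa3, Cebpa, Prox1, Hes6 and Tbx3, were followed in single mouse hepatocytes from 3 mice on a high fat diet (HFD) and 2 mice on a regular diet (LFD). The genes were picked by name, with the diet difference of this data set already known for the choice, so their diet values are a description, and where a fit over all genes gave calls for them, nothing is read from those calls. All 9 were among the 18018 genes of the unsmoothed table. Foxa1 had 10 UMIs and Tbx3 13 UMIs over all mice, under the 15 UMIs required of a gene, and both were too sparse for a comparison of levels. The other 7 had between 45 UMIs (Foxa2) and 269 UMIs (Cebpa), and Onecut1 had 92.

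Hepatocyte identity is held by a network of transcription factors that bind one another's genes and the genes of plasma proteins and metabolic enzymes. Onecut1, also known as HNF6, binds DNA through a cut domain and a homeodomain, acts in bile duct formation and in glucose metabolism, and in rat liver is induced by growth hormone. The FoxA proteins are pioneer factors that open liver chromatin during development, and Cebpa drives genes of gluconeogenesis and of the differentiated hepatocyte. Along the liver lobule, Wnt signals near the central vein and opposing programmes near the portal vein give hepatocytes different tasks.

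The livers came from male C57BL/6J littermates that were 8 weeks old at the start and stayed on their diet for 12 weeks, so each replicate was a separate animal. The assay was Drop-seq, in which every mRNA captured from a cell receives that cell's barcode and a tag of its own, the unique molecular identifier (UMI). HFD mice gave 238 cells with 743176 UMIs, and LFD mice gave 216 cells with 755918 UMIs. Levels are a gene's UMIs scaled to a total of 1000000 in the mouse (CPM), and a cell was positive for a gene when it held at least 1 UMI of it.

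The libraries were uneven. HFD mice 1, 2 and 3 had 5, 208 and 25 cells with 27903, 656803 and 58470 UMIs, and LFD mice 1 and 2 had 132 and 84 cells with 446868 and 309050 UMIs. Median genes per cell were 636, 862 and 744 in the HFD mice and 1012.5 and 1127.5 in the LFD mice, lower in all HFD mice. HFD mouse 1 stood apart, with 8.98% mitochondrially encoded UMIs against 5.10% to 5.63% in the others, and with 1219 CPM of sinusoidal endothelial markers against 25.9 to 41.1 CPM. In HFD mouse 1 these came from 3 of 13 markers (Kdr, Fcgr2b and Mrc1), while Stab1, Stab2, Clec4g and Pecam1 were at 0. Taken marker by marker, 24 of 25 hepatocyte markers were each detected in more than 50% of the cells of HFD mouse 1, as were all 25 in each other mouse. No barcode was shared between libraries. In the labels, the raw reads of HFD mouse 3 are named by another scheme than those of the other mice. Diet values are therefore also given without HFD mouse 1 and without HFD mouse 3.

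Onecut1 was low in HFD hepatocytes. HFD mice 1, 2 and 3 had 1, 8 and 0 UMIs of Onecut1, which gave 35.8, 12.2 and 0 CPM, and LFD mice 1 and 2 had 43 and 40 UMIs, which gave 96.2 and 129 CPM. All HFD mice lay below both LFD mice. The 0 in HFD mouse 3 allows up to 51.3 CPM, the level of 3 counts, or 63.1 CPM by the exact 95% Poisson interval. Both values are still below the lower LFD mouse. In HFD mouse 1 the exact 95% Poisson interval of 1 UMI ran up to 199.7 CPM and took in both LFD levels, so that this mouse alone could not show a difference at its depth. HFD mouse 2 had the narrowest interval of the HFD mice, 5.26 to 24.0 CPM, against 69.6 to 129.6 CPM in LFD mouse 1 and 92.5 to 176 CPM in LFD mouse 2. At the pooled LFD level, HFD mice 1, 2 and 3 would have held 3.06, 72.1 and 6.42 UMIs of Onecut1. Such intervals cover counting error only.

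The mean was 16.0 ± 18.2 CPM in HFD mice (SD, n = 3) and 113 ± 23.5 CPM in LFD mice (SD, n = 2). The limma voom log2 fold change of HFD over LFD was -2.89 (SE 0.76, 95% interval -4.52 to -1.26). Without HFD mouse 1 it was -3.37 (SE 0.65, 95% interval -4.64 to -2.10), without HFD mouse 2 it was -2.86 (SE 0.95), and without HFD mouse 3 it was -2.21 (SE 0.74). The median log2 fold change of all 6054 genes tested was -0.20 with 5 mice and -0.05 without HFD mouse 1.

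**Figure D1:**
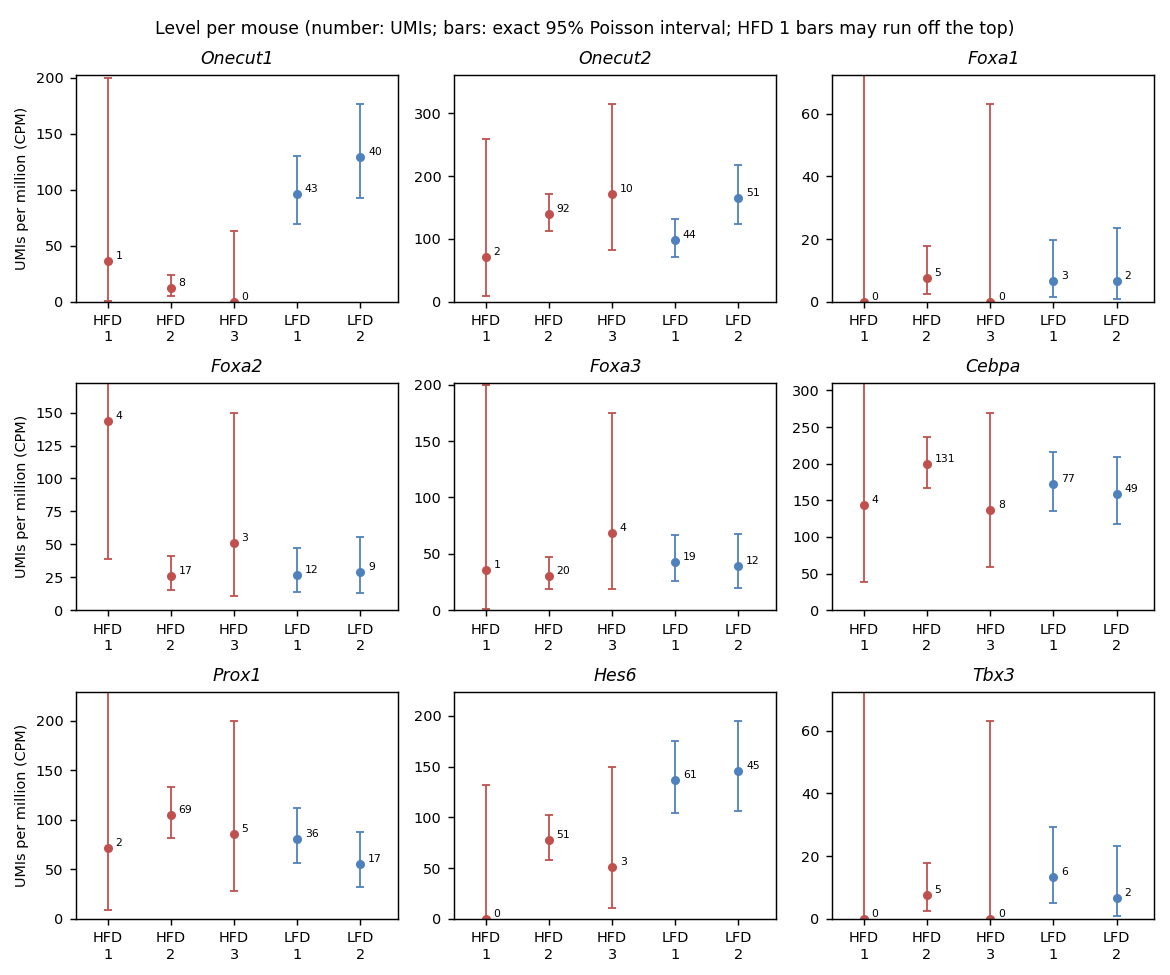
Level of each gene (CPM, vertical axis) in HFD mice 1 to 3 (red) and LFD mice 1 and 2 (blue); numbers are UMIs and bars are exact 95% Poisson intervals, some of which run beyond the axis in HFD mouse 1. Onecut1 and Hes6 lie lower in all HFD mice than in both LFD mice, and the other genes overlap between diets.

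Onecut1 lies on chromosome 9 (GRCm38, chr9:74861921-74891781, plus strand, protein-coding in GENCODE vM21). The 250 bases before the annotated start, taken from RefSeq (GRCm38.p6), are shown for Onecut1 (chr9:74861671-74861920, plus strand) and Hes6 (chr1:91414039-91414288, minus strand), the pair that was lower in all HFD mice. Those of Cebpa (chr7:35119043-35119292, plus strand), whose level overlapped between diets, stand beside them. Capitals mark matches to the searched motifs.
Onecut1: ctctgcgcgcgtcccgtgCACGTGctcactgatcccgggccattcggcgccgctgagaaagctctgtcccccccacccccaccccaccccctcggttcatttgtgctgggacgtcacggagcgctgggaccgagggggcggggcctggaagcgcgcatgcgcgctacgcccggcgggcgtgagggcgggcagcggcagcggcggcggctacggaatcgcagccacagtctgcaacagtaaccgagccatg
Hes6: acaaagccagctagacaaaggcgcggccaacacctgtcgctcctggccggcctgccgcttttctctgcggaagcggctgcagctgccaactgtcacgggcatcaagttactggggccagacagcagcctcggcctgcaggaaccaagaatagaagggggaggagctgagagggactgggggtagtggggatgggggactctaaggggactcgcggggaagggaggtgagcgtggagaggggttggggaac
Cebpa: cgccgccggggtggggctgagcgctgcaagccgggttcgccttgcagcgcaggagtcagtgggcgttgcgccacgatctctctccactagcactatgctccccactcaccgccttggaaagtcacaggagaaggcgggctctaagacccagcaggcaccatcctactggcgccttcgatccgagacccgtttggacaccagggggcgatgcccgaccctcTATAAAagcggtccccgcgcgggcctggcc

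Windows of 300 bases, which add 50 bases after the start, were searched on both strands for the FoxA motif TGTTTAC, the Onecut motif ATCAAT, the C/EBP motif TTGCAAT, the E-box CACGTG and the TATA box motif TATAAA. No letters are shared between matches of different motifs in the 3 sequences shown. The Onecut1 window held an E-box 232 bases before the start, and the Cebpa window a TATA box 30 bases before it. The Hes6 window held none of the 5, while the window of a second annotated Hes6 start held a TATA box 28 bases before that start. Of 32851 RefSeq windows of this length, 7.15% held the E-box, 13.6% the TATA box, 7.54% the Onecut motif, 3.65% the FoxA motif and 2.22% the C/EBP motif. The Onecut1 window was 73% GC and the Cebpa window 67.3% GC, against a median of 52.7% over all windows. RefSeq windows were matched for 7 of the 9 genes, and none was used for Onecut2 and Tbx3.

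With all cells kept, Onecut2, the paralog of Onecut1 with a similar DNA-binding domain, did not share its low HFD values. HFD mice 1, 2 and 3 had 2, 92 and 10 UMIs of Onecut2 (71.7, 140 and 171 CPM), and LFD mice 1 and 2 had 44 and 51 UMIs (98.5 and 165 CPM). The diets overlapped, and HFD mouse 3, which had no Onecut1 UMI, had the highest Onecut2 level. The log2 fold change of HFD over LFD was -0.16 (95% interval -1.57 to 1.25) with 5 mice and 0.15 (95% interval -0.56 to 0.85) without HFD mouse 1, so changes of either sign lie within the intervals. Over other voom settings it ran from -1.35, without the 5% of cells with most UMIs, to 0.17, without LFD mouse 2. The contrast with Onecut1 thus depends in size on the cells with most UMIs.

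Set against each other within a mouse, the paralogs need no scaling between libraries. Onecut1 made up 1 of 3 Onecut1 and Onecut2 UMIs in HFD mouse 1, 8 of 100 in HFD mouse 2 (8%, exact Clopper-Pearson 95% interval 3.52% to 15.2%) and 0 of 10 in HFD mouse 3 (upper bound 30.8%). It made up 43 of 87 in LFD mouse 1 (49.4%, interval 38.5% to 60.4%) and 40 of 91 in LFD mouse 2 (44.0%, interval 33.6% to 54.8%). The share in HFD mouse 3 and that in HFD mouse 2 lay below both LFD intervals, while 3 UMIs placed no useful bound in HFD mouse 1. These intervals take UMIs as the sampling unit and hold no spread between mice. The share is built from the Onecut1 UMIs given above, so it is no separate support for a diet difference. Both paralogs were found in the same cell in 0, 2 and 0 cells of HFD mice 1, 2 and 3, and in 8 and 17 cells of LFD mice 1 and 2.

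Hes6 was the other member of lower level in all HFD mice. It encodes a basic helix-loop-helix protein of the Hairy and enhancer of split family that antagonises the Notch effector Hes1. HFD mice 1, 2 and 3 had 0, 51 and 3 UMIs of Hes6 (0, 77.6 and 51.3 CPM), and LFD mice 1 and 2 had 61 and 45 UMIs (137 and 146 CPM). At the pooled LFD level the HFD mice would have held 3.91, 92.1 and 8.20 UMIs. The 0 of HFD mouse 1 allows up to 108 CPM at 3 counts, or 132 CPM by the exact 95% Poisson interval, close to LFD mouse 1. The log2 fold change of HFD over LFD was -2.01 (SE 0.75, 95% interval -3.62 to -0.40) with 5 mice. It was -0.99 (SE 0.40, 95% interval -1.79 to -0.20) without HFD mouse 1, so more than 1 log2 unit of the difference rested on 5 cells with no Hes6 UMI.

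FoxA levels were low and imprecise. Foxa2, the FoxA factor of bile acid and fasting metabolism, had 4, 17 and 3 UMIs in HFD mice 1, 2 and 3 (143, 25.9 and 51.3 CPM) and 12 and 9 UMIs in LFD mice 1 and 2 (26.9 and 29.1 CPM). The high value of HFD mouse 1 came from 1 cell that held all 4 UMIs, and HFD mouse 2 lay just below the LFD mice. The log2 fold change was 0.87 (95% interval -0.79 to 2.54) with 5 mice and 0.01 (95% interval -1.02 to 1.05) without HFD mouse 1. Foxa3, a FoxA factor of glucose metabolism in the fasted mouse, had 1, 20 and 4 UMIs in the HFD mice (35.8, 30.5 and 68.4 CPM) and 19 and 12 UMIs in the LFD mice (42.5 and 38.8 CPM), and the diets overlapped. Its log2 fold change was -0.01 (95% interval -1.45 to 1.44), or -0.27 (95% interval -1.22 to 0.68) without HFD mouse 1. Foxa1 had 0, 5 and 0 UMIs in the HFD mice and 3 and 2 UMIs in the LFD mice, each in a cell of its own, which did not allow a comparison.

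Cebpa and Prox1 overlapped between diets as well. Cebpa, the C/EBP factor that restrains hepatocyte proliferation, had 143, 199 and 137 CPM in HFD mice 1, 2 and 3 and 172 and 159 CPM in LFD mice 1 and 2. Its means were 160 ± 34.4 CPM in HFD mice (SD, n = 3) and 165 ± 9.73 CPM in LFD mice (SD, n = 2), with a log2 fold change of -0.14 (95% interval -1.46 to 1.17), or 0.04 (95% interval -0.64 to 0.73) without HFD mouse 1. Cebpa thus had the narrowest intervals of the set, which still take in changes of more than 0.6 log2 units either way. Prox1, a homeobox corepressor needed for hepatoblast migration, had 71.7, 105 and 85.5 CPM in the HFD mice and 80.6 and 55.0 CPM in the LFD mice. Its log2 fold change was 0.27 (95% interval -1.16 to 1.69), or 0.50 (95% interval -0.31 to 1.31) without HFD mouse 1. Tbx3, a T-box factor and Wnt target, had 0, 5 and 0 UMIs in the HFD mice and 6 and 2 UMIs in the LFD mice. Without HFD mouse 3, the log2 fold change of HFD over LFD was -2.32 for Hes6, -0.52 for Onecut2, 1.22 for Foxa2, -0.24 for Foxa3, -0.06 for Cebpa and 0.20 for Prox1.

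**Figure D2:**
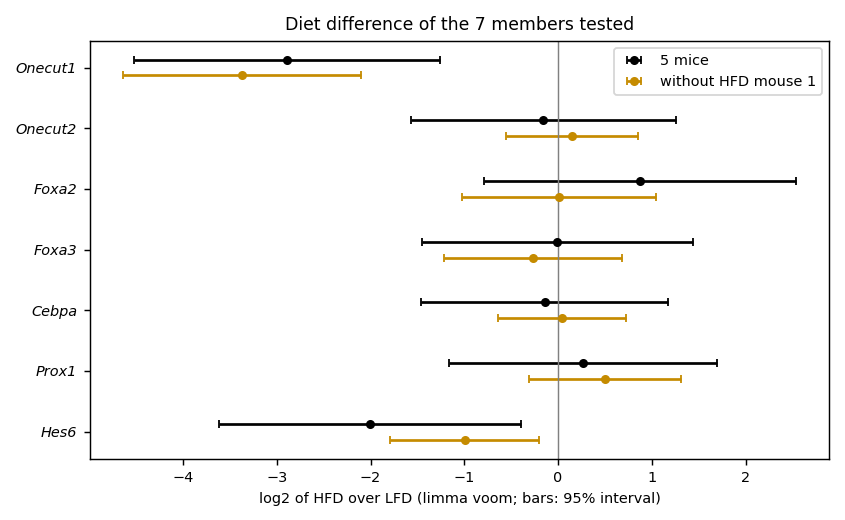
log2 fold change of HFD over LFD (horizontal axis) for the 7 genes with 15 or more UMIs, from all 5 mice (black) and without HFD mouse 1 (ochre); bars are 95% intervals of limma voom. Onecut1 lies at -2.89 and -3.37, Hes6 at -2.01 and -0.99, and the other genes between -0.27 and 0.87.

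Across the 7 tested members, HFD and LFD mice did not overlap for Onecut1 and Hes6, both lower in HFD, where the groups of mice did not overlap for 20.7% of all tested genes, and 14.5% had every HFD mouse below every LFD mouse. Limma voom placed 0 of the 7 past an adjusted p of 0.05 with 5 mice, where 0.033% of all genes passed. Limma-trend on mean log values placed 0 of the 7 as well, where 35 of 6054 genes passed. With voom, Onecut1 and Hes6 had an unadjusted p under 0.05, as had 4.72% of all genes. With HFD mouse 1 left out, 1 of the 7, Onecut1, was past the adjusted threshold, where 1.6% of all genes were (1.07% lower in HFD). As the genes were chosen with this contrast known, these counts restate the values above and support nothing further.

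The summed markers listed for cholangiocytes and for erythroid cells also differed between diets. The summed cholangiocyte markers were 108, 242 and 291 CPM in HFD mice 1, 2 and 3 and 430 and 392 CPM in LFD mice 1 and 2, lower in all HFD mice, and Onecut1 is also known from bile duct cells. They came from Krt8, Krt18 and Spp1 alone of 9 markers measured, and Krt7, Krt19, Epcam, Cldn7, Cftr and Ddit4l were at 0 in all mice. The sum is thus not a measure of bile duct cells, and a part of such cells in the Onecut1 values was not tested. Erythroid markers were 502, 13.7 and 291 CPM in the HFD mice and 6.71 and 3.24 CPM in the LFD mice. With 13 cells left out for 3 or more UMIs of a marker list, the log2 fold change was -2.84 for Onecut1 and -1.40 for Hes6. The lists used were macrophage, sinusoidal endothelial, stellate, T or NK, B cell, erythroid and cycling. The cholangiocyte list was not used, so no cell was left out for its markers. Of the 13 cells, 3 were among the 5 cells of HFD mouse 1. The part of the lower gene count per HFD cell in these differences was not tested.

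The share of positive cells was lower in all HFD mice than in both LFD mice for Onecut1 and Hes6, unthinned. How many of all genes had shares apart in this way was not counted, so nothing is read from it. In CPM, 14.5% of all tested genes had every HFD mouse below every LFD mouse. Onecut1-positive cells made up 20%, 3.85% and 0% of cells in HFD mice 1, 2 and 3, from 1, 8 and 0 cells, and 24.2% and 38.1% in LFD mice 1 and 2, from 32 cells each. The diets did not overlap, and 0 of 25 cells in HFD mouse 3 allows a share of up to 12%. Hes6-positive cells made up 0%, 19.7% and 8.00% in the HFD mice and 33.3% in both LFD mice. Cebpa-positive cells made up 40.0%, 39.4% and 28.0% in the HFD mice and 38.6% and 39.3% in the LFD mice, and overlapped. Median depth was 6598, 2181.5 and 1863 UMIs per cell in the HFD mice and 2734 and 3075.5 in the LFD mice, so shares were also computed with each cell thinned to 1728 UMIs, leaving out 85 shallower HFD cells and 28 LFD cells. After thinning, the mean share over mice was 5.23% in HFD and 16.9% in LFD for Onecut1, and 6.48% in HFD and 20.7% in LFD for Hes6. By mouse, the thinned Onecut1 share was 12.4%, 3.33% and 0% in HFD mice 1, 2 and 3, from 5, 134 and 14 cells kept. It was 13.9% and 19.9% in LFD mice 1 and 2, so HFD mouse 1 lay close to LFD mouse 1. For Cebpa the thinned means were 25.6% in HFD and 24.2% in LFD, and for Onecut2 they were 21.0% in HFD and 22.1% in LFD. With 3 mice against 2 there are 10 splits, so a two-sided exact permutation p taken as double the smaller tail cannot go below 0.2, and none is given.

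No cell type that should lack these genes was set apart to measure free RNA. In every mouse, at least 24 of 25 hepatocyte markers were each found in more than 50% of the cells.

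**Figure D3:**
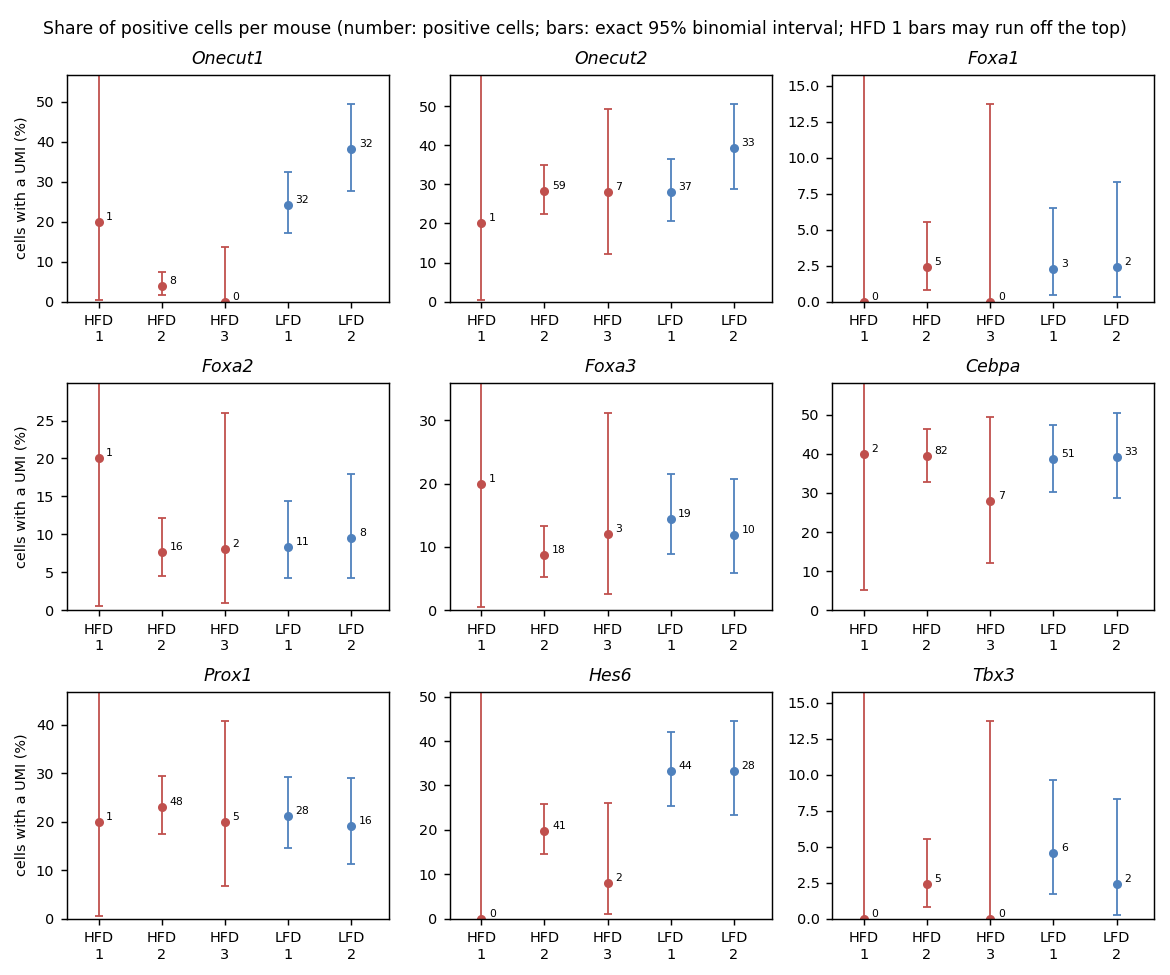
Share of cells with at least 1 UMI (%, vertical axis, unthinned) in HFD mice 1 to 3 (red) and LFD mice 1 and 2 (blue); numbers are positive cells and bars are exact 95% binomial intervals, some of which run beyond the axis in HFD mouse 1. Onecut1 was found in 3.85% of cells of HFD mouse 2 and in 24.2% and 38.1% of cells of the LFD mice.

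For position along the lobule, the cells of each mouse were ordered by UMIs of 16 pericentral over 18 periportal score genes. None of these was a member, and cells were divided at the median. Cyp2e1, Oat, Cyp2a5 and Slco1b2 of the score were higher on the pericentral side of 5 mice, but Glul, Cyp2c50, Slc1a2 and Rhbg of only 3. The sides are thus coarse, and 0 calls between them do not show a lack of zonation. No member passed limma voom's adjusted p of 0.05 between the pericentral and the periportal side (0 of 7, against 0.0166% of all genes), and at an unadjusted p under 0.05 there was 1 of 7, Foxa2, against 6.8% of all genes. Limma-trend on mean log values called 0 of 7, too, and 0 of 6013 genes. When HFD mouse 1 was left out, voom called 0 of 7 members (2.15% of all genes, 1.19% lower pericentrally), and Foxa2 and Hes6 had an unadjusted p under 0.05, against 11% of all genes. Foxa2 was lower on the pericentral side of every mouse. In HFD mice 1, 2 and 3 it had 0, 19.5 and 33.8 CPM on the pericentral side and 360.4, 33.5 and 72.3 CPM on the periportal side. In LFD mice 1 and 2 it had 21.0 and 14.5 CPM pericentrally and 31.2 and 40.9 CPM periportally. These rest on 14 pericentral and 31 periportal UMIs in all. In HFD mouse 1 they were 0 pericentral UMIs and 4 periportal UMIs, all in 1 of 2 periportal cells. HFD mouse 3 had 1 pericentral UMI and 2 periportal UMIs. The log2 difference of pericentral minus periportal was -1.51 (SE 0.51, 95% interval -2.62 to -0.40), -0.92 without HFD mouse 1, and -0.51 without the cells with other markers. With limma-trend, or with voom without the cells with other markers, Foxa2 did not reach an unadjusted p under 0.05. A periportal side higher in each of the 4 mice other than HFD mouse 1 was found for 5.67% of all genes.

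Hes6 and Onecut1 also had lower pericentral values, within wide intervals. Hes6 had 58.6 CPM pericentrally and 100.4 CPM periportally in HFD mouse 2, 99.9 and 164 CPM in LFD mouse 1, and 123 and 164 CPM in LFD mouse 2. HFD mouse 3 went the other way on 2 pericentral UMIs and 1 periportal UMI, and HFD mouse 1 had none. The log2 difference of pericentral minus periportal for Hes6 was -0.50 (95% interval -1.39 to 0.40), and -0.68 without HFD mouse 1. In 3 groups of about as many cells each, from pericentral through middle to periportal, Hes6 had 98.0, 139 and 157 CPM in LFD mouse 1 and 77.0, 142 and 197 CPM in LFD mouse 2. In HFD mouse 2 these groups had 75.5, 60.6 and 96.5 CPM, without such a steady order.

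Onecut1 had 84.1 CPM pericentrally and 105 CPM periportally in LFD mouse 1, 123 and 134.5 CPM in LFD mouse 2, and 11.2 and 13.4 CPM, from 4 UMIs each, in HFD mouse 2. Its log2 difference of pericentral minus periportal was -0.64 (95% interval -1.62 to 0.33), and -0.36 without HFD mouse 1. The level of Onecut1 in HFD mouse 2 was thus below both LFD mice on either side of the lobule. Such parts divide the same few UMIs of 1 HFD mouse, so they restate its low level and add no support. In the 3 groups of cells, HFD mouse 2 had 15.9, 0 and 19.3 CPM, below each group of LFD mouse 1 (62.4, 104 and 110 CPM) and of LFD mouse 2 (128, 151 and 107 CPM). In LFD mouse 2 the pericentral group thus lay above the periportal group, against the order of its sides.

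Tbx3 and Foxa1 UMIs lay mostly on the pericentral side, in counts too small for a test. Tbx3 had 4 pericentral UMIs and 1 periportal UMI in HFD mouse 2, 6 and 0 in LFD mouse 1 and 2 and 0 in LFD mouse 2, 12 and 1 in all. Foxa1 had 8 pericentral and 2 periportal UMIs in all. Onecut2 had 113 pericentral and 86 periportal UMIs. It was higher pericentrally in 4 of 5 mice, with 165 CPM pericentrally and 110 CPM periportally in HFD mouse 2, and its log2 difference was -0.16 with 5 mice and 0.35 without HFD mouse 1. For Foxa3, Cebpa and Prox1 the log2 difference was -0.38, -0.44 and -0.29 with 5 mice, and 0.03, 0.16 and 0.24 without HFD mouse 1. The sign of these 4 thus changed when HFD mouse 1, with 2 cells per side, was left out. With that mouse kept, Onecut2 was also above 0 with library totals (0.01) and between the outer 2 of 3 groups of cells (0.33). Without the 5% of cells with most UMIs, Onecut2 was at 0.12 and Prox1 at 0.03. The median of all genes was -0.18 with 5 mice and 0.01 without HFD mouse 1.

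**Figure D4:**
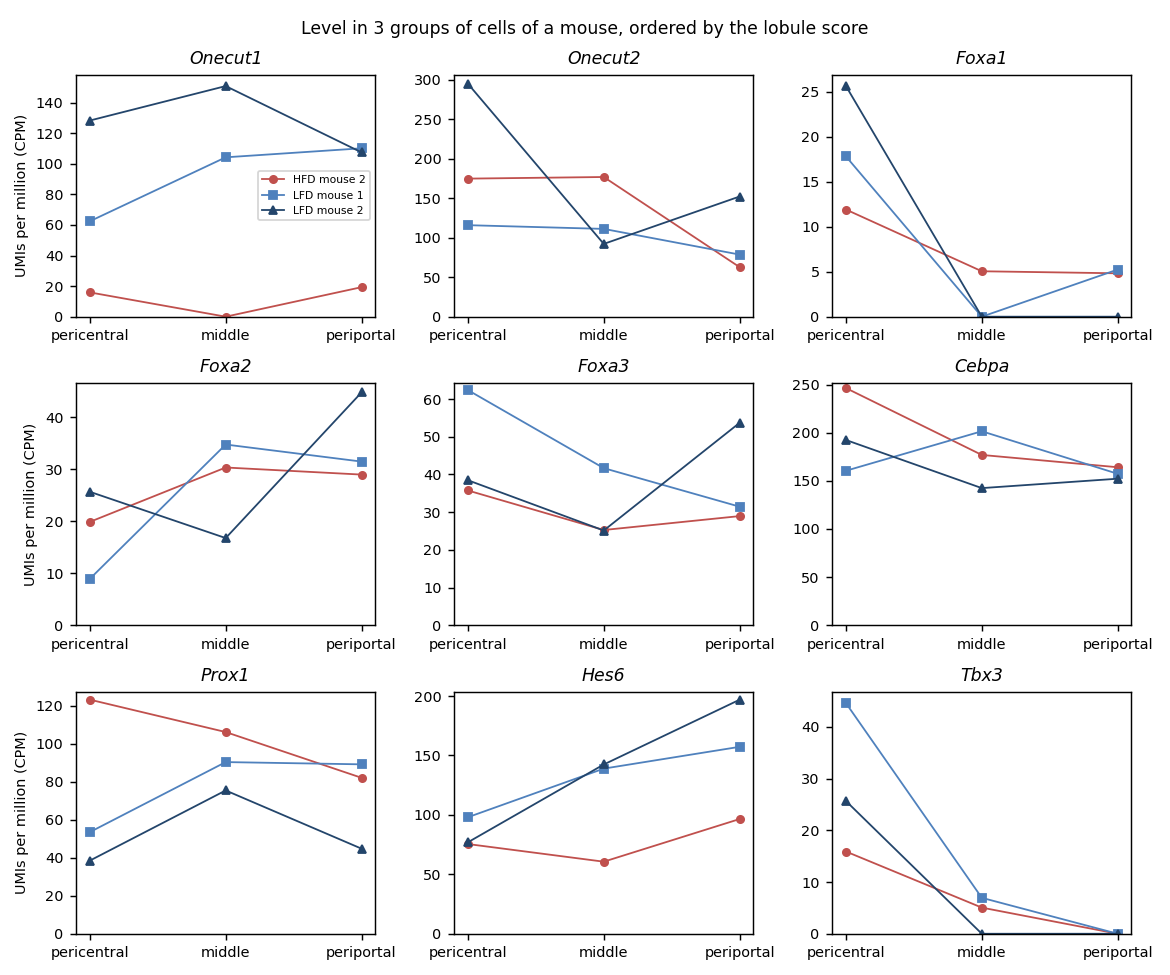
Level (CPM, vertical axis) in 3 groups of cells of a mouse ordered by the lobule score (horizontal axis), for HFD mouse 2 (red) and LFD mice 1 and 2 (blue), the mice with 84 or more cells. Onecut1 is lower in HFD mouse 2 than in the LFD mice in each group of cells, which restates its level per mouse in parts. Tbx3 has its highest value in the pericentral group of each mouse.

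Whether the lobule difference itself depended on diet was tested by an interaction term. Limma voom called 0 of the 7 members and 0 of 6013 genes, limma-trend called 0 of both, and at an unadjusted p under 0.05 there were 0 members and 155 genes (2.58%). The interaction estimate for Onecut1 was -0.53 (SE 0.99) and for Hes6 0.44 (SE 0.91) on the log2 scale, so a difference of 1 log2 unit between diets was about the size of the SE.

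Genes of the same network were read from 3 lists. In each, limma-trend called 0 genes for diet and 0 between lobule sides with 5 mice. Over the whole table it called 35 of 6054 genes for diet and 0 of 6013 between lobule sides. Of 29 other liver-enriched transcription factors, 22 were tested for diet, and 12 lay below 0 (60.7% of all genes did). Their median log2 fold change was -0.12, and limma voom called 0 (0 also at an unadjusted p under 0.05). Over all genes, voom called 0.033%, and 4.72% had an unadjusted p under 0.05. Creb3l3, a membrane-bound factor of lipid metabolism, and Nfib, a nuclear factor I protein, had log2 fold changes of -0.69 and 0.37. Without HFD mouse 1, 7 had an unadjusted p under 0.05 (9.75% of all genes had). The only gene called, where 1.6% of all genes were, was Dbp, a circadian PAR bZIP factor. It had 0, 18.3 and 137 CPM in HFD mice 1, 2 and 3 and 87.3 and 61.5 CPM in LFD mice 1 and 2, so the called difference (log2 fold change -1.53, SE 0.45) rested on HFD mouse 2, with HFD mouse 3 above both LFD mice.

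Of 20 genes known as FoxA, Onecut1 or Cebpa targets, 18 were tested, 16 lay below 0 with a median of -0.59, and 0 were called with 5 mice (unadjusted p under 0.05 for 1). Over all genes, 60.7% lay below 0, with a median of -0.20, 0.033% were called, and 4.72% had an unadjusted p under 0.05. Without HFD mouse 1, 12 of 18 targets lay below 0, against 54.0% of all genes. Their median was -0.19, against -0.05 over all genes, and 1 was called, against 1.6% of all genes. This was Apoa1, the main protein of HDL, with 14658, 9094 and 6892 CPM in HFD mice 1, 2 and 3 and 13317 and 14325 CPM in LFD mice 1 and 2 (log2 fold change -0.92, SE 0.21, without HFD mouse 1). Alb and Ttr, the plasma proteins albumin and transthyretin, had log2 fold changes of -0.05 and -0.07 with 5 mice. Between lobule sides 0 of 16 targets were called with 5 mice (unadjusted p under 0.05 for 7), and with HFD mouse 1 left out 6 were lower and 1 higher pericentrally. Over all genes, 6.8% had an unadjusted p under 0.05 with 5 mice, and 1.19% were called lower and 0.955% higher pericentrally with HFD mouse 1 left out. Among these, pericentral minus periportal was -0.72 (SE 0.05) for Alb, -0.96 (SE 0.21) for G6pc, the glucose-6-phosphatase of gluconeogenesis, and 2.85 (SE 0.51) for Cyp7a1, the rate-limiting enzyme of bile acid synthesis.

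Of 29 Wnt and Notch pathway genes 8 were tested for diet, and 2 lay below 0 (60.7% of all genes did) with a median of 0.46. With or without HFD mouse 1, 0 were called (unadjusted p under 0.05 for 0 and 1). Over all genes, 0.033% were called with 5 mice and 1.6% without HFD mouse 1. An unadjusted p under 0.05 was found for 4.72% and 9.75% of all genes. Ctnnb1, the Wnt effector beta-catenin, had a log2 fold change of 0.19, and Lgr4, an R-spondin receptor, 1.13. HFD mice 1, 2 and 3 had 932, 25.9 and 17.1 CPM of Lgr4. LFD mice 1 and 2 had 42.5 and 25.9 CPM of Lgr4, and without HFD mouse 1 its log2 fold change was -0.50. Hes1, the Notch effector, was called lower pericentrally without HFD mouse 1, with a log2 difference of -1.57 (SE 0.41). It was 1 of 8 tested there, where 1.19% of all genes were called lower pericentrally.

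Over 8 profiles (the 2 sides of the 4 mice other than HFD mouse 1), the genes closest in pattern were sought by Pearson correlation of log2(CPM + 20) among 1649 genes, as a description in which sides share a mouse and its depth. Hes6 was closest to Ces3b, a carboxylesterase (r = 0.98), Apom, an apolipoprotein of HDL (0.96), and Igf1, the growth factor (0.94). Onecut2 was closest to Mgam (0.90), Amy1 (0.89) and Ogdh (0.87), Cebpa to Golim4 (0.98) and Atg3 (0.94), and Prox1 to Lactb (0.92), Sars (0.92) and Ldha (0.91). Onecut1, with 92 UMIs under the 100 asked for and added after its values were seen, was closest to Serpina3k (0.99), Selenbp2 (0.99) and Apoa1 (0.98).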

How the data were processed

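The deposited table that the authors made holds natural log values of 1 plus UMIs per 10000 per cell, as the values show, with STAR 2.6.0a and mm10 per the submitters' processing notes. For cell filters, annotation, strand, doublets and reads shared between genes, the treatment is not given in the sources used. In GENCODE vM21, exons of Onecut1, Cebpa, Prox1 and Tbx3 overlap another gene, none of which is in the table. All values were whole multiples of the step of their cell (100%, tolerance 0.001), so UMIs were recovered and summed per mouse, taken from the column prefix. A second deposited table, smoothed on the same natural log scale, was used for comparison.

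The members and lists were chosen with earlier results of these data known. Genes with 15 UMIs in all were tested in R 4.3.3 by voom of limma 3.58.1 with trimmed-mean factors for HFD minus LFD, for pericentral minus periportal with mouse as a block, and for their interaction. Benjamini-Hochberg adjusted p under 0.05 over all genes was the threshold, and scripts were tested on simulated counts. Shares were thinned by the hypergeometric expectation (SciPy 1.17.1). Besides the members, the text names from each list up to 3 genes of smallest p past the threshold or else the 2 of most UMIs, and the 3 genes of highest correlation with a member of 100 UMIs or more, predicted gene models passed over; 1 gene of the correlation lists is not reported here. The floor of a 0 is 3 counts.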

Additional observations from a re-analysis of the deposited data

How the results depend on the processing

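With 5 mice, diet was past the threshold for 2 genes of the whole table (Selenbp2 and Cyp3a11), and for 1 with library totals, 1 with median-of-ratios factors and 35 with limma-trend. Leaving out 1 mouse gave 0 to 96 (96 without HFD mouse 1, 0 without HFD mouse 2 or 3, 7 and 10 without LFD mouse 1 or 2). The replicate block gave 54 genes, with Onecut1 at -2.11. Same-numbered mice correlated at 0.06 and 0.11 in 2 pairs, so the block is not taken as a pairing. The lobule difference was past the threshold for 1 gene, 0 with library totals, median-of-ratios factors, limma-trend or a score without its largest genes, 5 without the 5% of cells with most UMIs, 14 without cells of other markers (added after the data were seen) and 23 between the outer 2 of 3 groups of cells. Without 1 mouse it gave 0 to 128 (128 without HFD mouse 1, 1 without HFD mouse 3 and 0 without HFD mouse 2 or either LFD mouse), and the interaction 0 to 3. The thinned Onecut1 share, HFD minus LFD, was -11.7 points, -23.2 unthinned and -15.2 to -8.67 without 1 mouse. The diet log2 difference kept its sign in 15 of 15 alternatives for Onecut1 and Hes6, with voom values of -3.37 to -2.11 and -2.78 to -0.99. These alternatives reuse the UMIs of genes chosen with this contrast known. As the diets did not overlap in CPM for either gene, the sign could hardly turn, so the count supports nothing further. Leaving out the 5% of cells with most UMIs moved Onecut2 to -1.35, Prox1 to -0.69 and Foxa2 to -0.04. The causes were not tested. Depth limits all of this: by the floor of 3 counts, 5 and 25 cells in HFD mice 1 and 3 allow up to 108 and 51.3 CPM at 0 UMIs.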

Other observations

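In the deposited smoothed table, Onecut1 differed little between diets, and its mean natural log value was 0.245, 0.245 and 0.250 in HFD mice 1, 2 and 3 and 0.284 and 0.285 in LFD mice 1 and 2. The unsmoothed means on the same scale were 0.304, 0.0515 and 0 in the HFD mice and 0.336 and 0.586 in the LFD mice. HFD mouse 3, which held no Onecut1 UMI, thus had a higher smoothed mean than HFD mouse 2, which held 8. The smoothed means of Hes6 were 0.411, 0.409 and 0.414 in the HFD mice and 0.439 in both LFD mice, against unsmoothed means of 0, 0.297 and 0.134 in the HFD mice and 0.517 and 0.531 in the LFD mice. The order of diets was kept for both genes, and the size of the difference was not.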
